A study of Mus musculus with 6 samples.

Results

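The macrophages described here are the 482 cells that the authors' ImmGen-based labels called macrophages within cluster 5 of their coarsest clustering, out of 69776 kept cells in 6 libraries. The authors proposed that cluster 5 contains monocytes. Cluster 5 held 7354 cells in all, of which 3734 were labelled monocytes and 174 dendritic cells. The libraries were single-cell 3′ RNA sequencing captures of marrow cells from 2-month-old C57BL/6 mice, selected on magnetic beads for CD11b, the integrin subunit encoded by Itgam that is carried by neutrophils, monocytes and macrophages. Of the 3 femur libraries, replicate 1 came from female and replicates 2 and 3 from male mice, and the 3 mandible libraries came from male mice. No mouse was treated or carried a mutation. The femur group is marrow flushed from cut long bones (femurs and tibiae in the labels, femurs alone in the methods), and the mandible group is marrow flushed from jaws after the molars had been pulled and the sockets rinsed, so that mandible suspensions can hold cells from around the teeth. How many mice went into a library was not stated, and p-values measure only the spread between these libraries. CD11b selection may also limit the members, since resident macrophages can carry little of it, which was not tested, as unselected cells were not sequenced. Among the selected cells, Itgam RNA averaged 133 CPM in macrophages and 355 CPM in the monocytes. CPM are unique molecular identifiers (UMIs) per 1000000 UMIs of the summed cells.

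Marrow macrophages are long-lived phagocytes. Those at the centre of erythroblast islands hold maturing red cells through the adhesion molecule VCAM1, engulf the nuclei that red cells expel, break down haem and return its iron to the blood through ferroportin. Others clear aged neutrophils and dead cells, secrete the 3 chains of C1q that start the classical complement pathway, present antigen on MHC class II, and share their CSF1 receptor lineage with the bone-resorbing osteoclast.

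Depth differed between libraries and between cell labels. The kept cells of a library held 82962160 to 244946998 UMIs, and the macrophages of a library held 232355 to 1231981. Median depth was 2811 to 6495 UMIs per macrophage, against 8022 to 10257.5 per monocyte and 2840.5 to 5096.5 per B cell. Of 69276 distinct kept barcodes, 500 occurred in more than 1 library, and no barcode was a macrophage in 2 libraries. Of the 482 macrophage barcodes, 6 also occurred on a kept cell of another library. Doublets were marked with Scrublet, whose automatic threshold marked under 0.04% of cells in 3 libraries and so had not worked there, and 4 macrophages, all of femur replicate 3, were marked. Xist was at 687 CPM in the macrophages of femur replicate 1 and at 0 in those of every other library, as the labelled sexes have it.

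Most members held transcripts of the macrophage markers, which is a description, since the authors' label was drawn from the same expression values. A UMI of C1qa, C1qb or C1qc, the chains of the complement starter C1q, was found in 432 cells (89.6%), UMIs of all 3 chains in 400 cells (83.0%), and the median member held 34 UMIs of the 3 genes together. Vcam1 and Mrc1, the mannose receptor, were both detected in 350 cells (72.6%), and neither in 61 cells. C1qa was detected in 83.9% ± 9.50 of the femur and 88.5% ± 8.41 of the mandible macrophages (SD, n = 3 libraries each), and in 79.0% and 86.0% after each cell had been thinned to 2000 UMIs. In B cells, which should lack it, the share was 1.36% in femur and 0.824% in mandible. The neutrophil gene S100a8 had a UMI in 100% of macrophages at both sites and in 100% and 99.1% of B cells. The source of these transcripts was not tested. The second reference label of the authors called 195 of the 482 cells macrophages (40.5%), 123 monocytes and 109 microglia, the macrophages of the brain. By the deposited phase calls 431 cells (89.4%) were in G1.

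Levels of the 5 markers were high in every library. C1qa was at 4249, 3031 and 2531 CPM in the femur libraries and at 3193, 3581 and 4642 CPM in the mandible libraries. Vcam1 was at 5345, 3559 and 2079 CPM in femur and 4582, 4136 and 3675 CPM in mandible. Mrc1 was at 2874, 2345 and 1026 CPM in femur and 2894, 2324 and 2615 CPM in mandible. The sites overlapped for each of them, and femur replicate 3 was the lowest library for C1qa, Vcam1 and Mrc1. Some defining genes of other cells were lower than in those cells: Ly6c2, a surface protein of classical monocytes, averaged 258 CPM against 1836 CPM in the monocytes, Vcan 7.59 against 151 CPM, and the dendritic cell receptor gene Flt3 8.47 CPM against 201 CPM in the dendritic cells. Others were not uniformly lower than in the monocytes. The B cell receptor gene Cd79b was at 80.3 CPM against 14.2 CPM and the globin gene Hbb-bs at 367 against 21.6 CPM, both higher in 6 of 6 libraries, while Cd79a was at 2.22 and 2.53 CPM. The neutrophil genes S100a8 and S100a9 averaged 4960 and 5582 CPM in the macrophages and 5995 and 6321 CPM in the monocytes, and Ngp averaged 987 and 1095 CPM. Each of these 3 neutrophil genes was higher in the macrophages in 3 of 6 libraries.

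The genes that set these cells apart from the monocytes of cluster 5 are given as a description with no test, because the labels were made from the same expression values. Ranked by the median log2 ratio over the 6 libraries (pseudocount 1 CPM, at least 50 CPM in macrophages), Mertk led, a receptor by which macrophages take up dying cells, with 834 to 1535 CPM in macrophages and 0.172 to 1.83 CPM in monocytes. Vcam1 followed with 2079 to 5345 CPM against 0.967 to 37.6 CPM. The list also held the iron exporter gene Slc40a1 (867 to 3191 CPM against 2.26 to 32.3 CPM), the ficolin gene Fcna (587 to 1521 against 0.808 to 15.6 CPM), the growth factor genes Igf1 (452 to 964 against 0.517 to 5.89 CPM) and Pdgfc (267 to 565 CPM against at most 2.24), Cd5l, which encodes a secreted scavenger protein of tissue macrophages, the integrin gene Itgad and the eotaxin receptor gene Ccr3. The other 11 of the 20 genes were Ptprm, Slc1a3, Samd4, Dlc1, Dgki, Slco2b1, Myo10, Dst, Col14a1, Kcnj10 and Sema6d. The 20 genes were higher in macrophages in 6 of 6 libraries, which the ranking required.

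**Figure D1:**
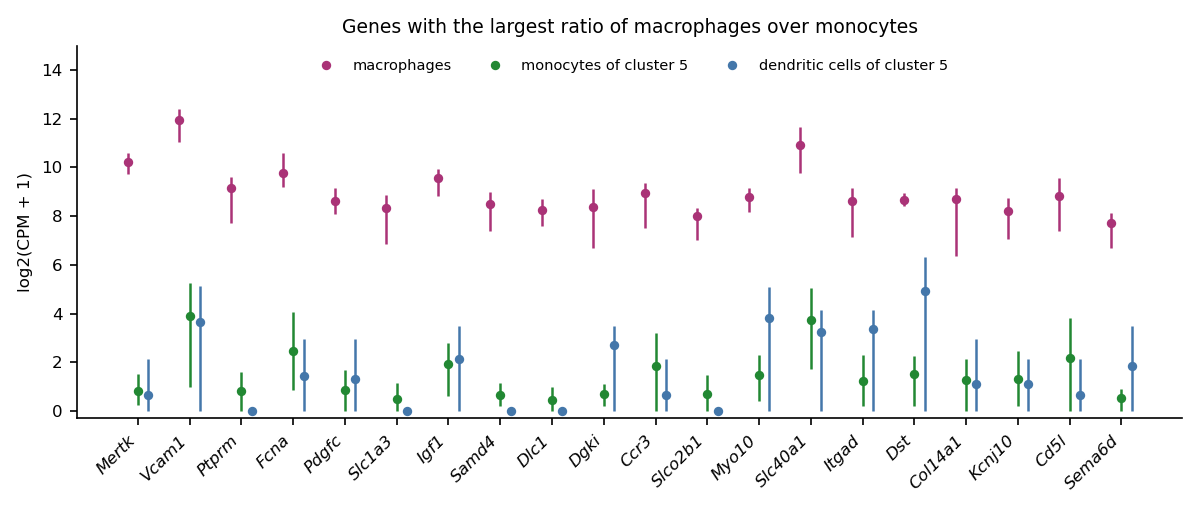
The 20 genes with the largest ratio of macrophages over monocytes of cluster 5, as log2(CPM + 1) on the vertical axis. Points are the mean of the 6 libraries and vertical lines run from the lowest to the highest library for macrophages, monocytes and dendritic cells. For each gene the macrophage range lies wholly above both other ranges, with Mertk and Vcam1 at the left.

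Promoter sequence is shown for 3 genes that carry the results: C1qb, a marker of the cells, Stab1, which was higher in mandible macrophages, and Cxcl10, which was lower there without passing the test. Each is the 250 bases before the gene's start from the RefSeq promoter table of build GRCm38.p6, printed 5′ to 3′ on the gene's strand, which is the minus strand for the 3 genes. C1qb lies at chr4:136886201-136886450, Stab1 at chr14:31168642-31168891 and Cxcl10 at chr5:92348890-92349139. Capitals mark matches on either strand to GAGGAA, the core bound by the myeloid factor PU.1, to TGCTGA, a partial site of the MAF family, and to the core of the interferon response element, which is GAAA, any 2 bases and GAAA again.
C1qb: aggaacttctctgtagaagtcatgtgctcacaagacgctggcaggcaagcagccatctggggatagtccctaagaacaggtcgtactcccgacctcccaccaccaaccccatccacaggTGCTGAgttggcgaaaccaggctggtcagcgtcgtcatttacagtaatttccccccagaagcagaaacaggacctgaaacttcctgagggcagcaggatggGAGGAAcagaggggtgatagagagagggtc
Stab1: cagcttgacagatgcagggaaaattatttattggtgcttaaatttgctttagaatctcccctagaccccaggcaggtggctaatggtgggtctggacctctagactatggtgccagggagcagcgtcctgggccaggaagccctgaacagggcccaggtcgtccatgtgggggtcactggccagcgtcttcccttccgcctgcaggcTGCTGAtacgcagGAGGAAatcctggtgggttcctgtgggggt
Cxcl10: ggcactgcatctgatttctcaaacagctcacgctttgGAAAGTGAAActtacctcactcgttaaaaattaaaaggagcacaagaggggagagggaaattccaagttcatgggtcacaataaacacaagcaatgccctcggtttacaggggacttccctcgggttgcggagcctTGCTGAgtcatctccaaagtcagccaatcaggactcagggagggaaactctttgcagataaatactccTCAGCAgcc
The C1qb and Stab1 windows each held 1 match to the PU.1 core and 1 to the MAF site. The Cxcl10 window held 1 match to the interferon response element core, 2 to the MAF site and none to the PU.1 core. Among 32851 promoters of the same length, 23.3% held GAGGAA, 16.1% held TGCTGA, 3.68% held both and 2.98% held the interferon response element core. These are matches of letters and not shown to be bound.

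The members came as 2 groups in the authors' finest clustering, described here with no test because the clusters were made from the same genes. Cluster 15 held 319 of the 482 cells (66.2%) and cluster 8 held 139 (28.8%), with 24 cells in clusters 12, 16 and 17. Vcam1 was detected in 98.4% of cluster 15 and 39.6% of cluster 8 members, C1qa in 99.1% and 74.1%, and Mrc1 in 94.98% and 67.6%. Genes of the erythroblast island macrophage were found mostly in cluster 15: Slc40a1 in 94.4% against 37.4%, the haem oxygenase gene Hmox1 in 88.4% against 59.0%, the haemoglobin scavenger receptor gene Cd163 in 56.4% against 7.91%, the apoptotic cell receptor gene Timd4 in 50.2% against 1.44% and Cd5l in 79.6% against 5.76%. Genes of monocyte-derived cells were found mostly in cluster 8: the chemokine receptor gene Ccr2 in 66.9% against 2.51% of cluster 15, the fractalkine receptor gene Cx3cr1 in 86.3% against 7.84%, F13a1 in 53.2% against 3.13% and the MHC class II gene H2-Aa in 82.7% against 27.3%. Cluster 8 members were also deeper, with a median of 9046 UMIs against 2393, so a share in cluster 8 that is lower than in cluster 15 runs against depth, and a higher one runs with it. In CPM, which allow for depth, Ccr2 had a median over libraries of 818 in cluster 8 and 3.28 in cluster 15, and Vcam1 552 and 7303. The second reference label called 31.7% of the cluster 8 members macrophages and 55.4% monocytes, against 44.2% and 12.2% of the cluster 15 members.

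The question whether macrophages were a different share of the 2 marrows was addressed per library. They made up 1.63%, 0.801% and 0.224% of the kept cells in femur and 0.837%, 0.526% and 0.683% in mandible. The mandible values lay within the femur range, with means of 0.884% ± 0.706 and 0.682% ± 0.156 (SD, n = 3 each). The difference was -0.202 percentage points (2-sided exact permutation p = 0.8 and adjusted p = 0.8 over 2 comparisons). Of cluster 5 they made up 15.7%, 6.51% and 3.53% in femur and 7.56%, 3.54% and 4.53% in mandible, a difference of -3.37 points (exact permutation p = 0.7, adjusted p = 0.8). The smallest p that 3 against 3 libraries allow is 0.1. The femur libraries differed among themselves more than the sites did, and femur replicate 1, the female library, decided the direction: without it the differences were 0.170 and 0.189 points. Cluster 15 was 74.9%, 64.5% and 37.3% of the macrophages in femur and 69.4%, 58.7% and 71.7% in mandible, so that femur replicate 3, with 51 macrophages, held mostly cluster 8 cells.

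**Figure D2:**
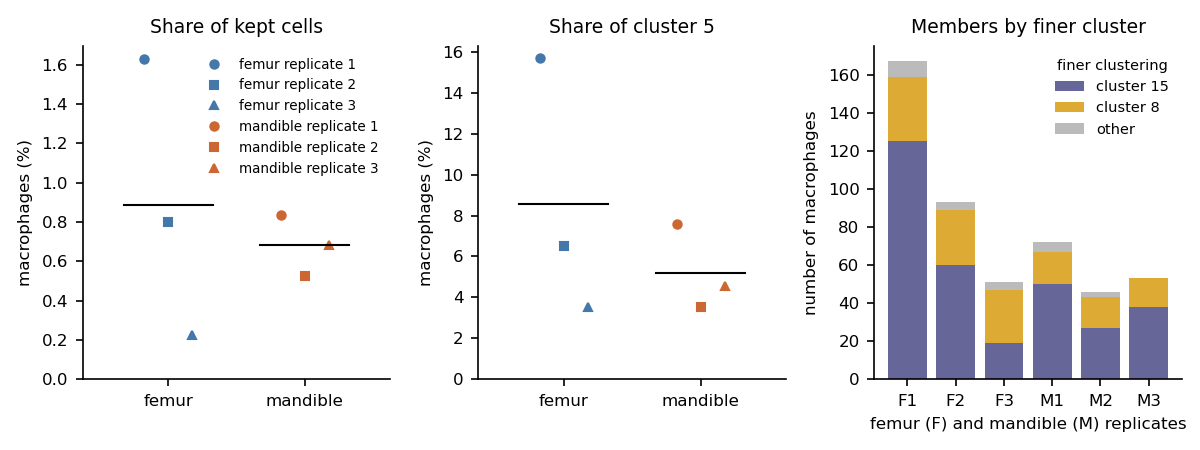
Macrophages as a percent of kept cells (left) and of cluster 5 (middle), 1 point per library with a line at the mean of each site, and the number of macrophages per library by finer cluster (right, stacked bars from 0). Femur replicate 1 is the highest library in both shares at 1.63% and 15.7%, the mandible points lie inside the femur range, and cluster 15 is the larger part of each bar but that of femur replicate 3.

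The site comparison asked which genes differed between mandible and femur macrophages, with the UMIs of the members summed per library. Of 6735 genes tested, 3 passed (0.0445%; edgeR quasi-likelihood test, Benjamini-Hochberg adjusted p under 0.05), and the 3 were higher in mandible: Fcrls, Stab1 and Amelx. At an unadjusted p under 0.05, 254 genes (3.77%) were higher in mandible and 189 (2.81%) lower. The libraries of the sites did not overlap for 674 genes (10.0%) that were higher in mandible and for 270 genes (4.01%) that were lower. The calls changed with the libraries and the members that were kept, and the part of fewer cells in this was not tested. Among the members that the second reference label also calls macrophages, 0 of 3790 genes passed in edgeR, with 86 at an unadjusted p under 0.05. In that fit Stab1 was at 2.19 ± 0.54 on the log2 scale with an adjusted p of 1.00, Amelx had an adjusted p of 0.272 by edgeR, and Fcrls did not pass the filter on low counts. With the block on the library number, over 4 libraries with 1 residual degree of freedom, Amelx alone of the 3 passed. Fcrls and Stab1 each had an edgeR adjusted p of 0.458 in that fit, where the Fcrls log2 fold change was not below 4.63. Fcrls, Stab1 and Amelx all passed without femur replicate 3 or mandible replicate 1, but without mandible replicate 3 no gene passed, with adjusted p of 0.103 for Fcrls, 0.237 for Stab1 and 0.0512 for Amelx by edgeR. Without femur replicate 1 or femur replicate 2 Fcrls alone of the 3 remained, and without mandible replicate 2 Stab1 did not pass (edgeR adjusted p = 0.143). Log2 fold changes of Fcrls stayed within 4.63 to 5.40 and those of Stab1 within 1.68 to 2.35 when 1 library was left out. The median log2 fold change of all genes tested was -0.02, and 48.0% of genes had a positive one. In these summed cells, fewer macrophages that express a gene and less RNA per macrophage cannot be told apart except where cells are counted.

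Fcrls encodes an Fc receptor-like scavenger receptor known from microglia and some tissue macrophages. The gene lies at chr3:87250758-87263738 (mm10) on the minus strand. It was at 4.06, 4.65 and 0 CPM in femur and at 47.1, 176 and 147 CPM in mandible macrophages. The lowest mandible library lay far above the highest femur library, and femur replicate 3 had no UMI. The log2 fold change was 4.95 ± 0.59 (SE, edgeR adjusted p = 0.00588), from 8 UMIs in the femur and 116 in the mandible libraries, a pooled ratio of 31.0 (95% exact interval 15.2 to 73.5, counting error only). A UMI was found in 1.32% of femur and 14.8% of mandible macrophages, in 0% and 13.4% after thinning, and in 0% of B cells at both sites.

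Stab1 encodes stabilin 1, an endocytic scavenger receptor that also binds phosphatidylserine on dying cells. It lies at chr14:31139013-31168641 on the minus strand, and its promoter window is printed with that of C1qb. It was at 56.8, 82.2 and 102 CPM in femur and 224, 318 and 524 CPM in mandible macrophages. The sites did not overlap, and the lowest mandible library was above the highest femur library by more than the whole femur range. The log2 fold change was 2.09 ± 0.32 (SE, edgeR adjusted p = 0.0334). A UMI was found in 14.9% of femur and 27.8% of mandible macrophages, in 8.06% and 25.9% after thinning, and in 0% and 0.547% of B cells.

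Amelx, on the X chromosome, encodes amelogenin, the main protein of enamel matrix. It was at 0 in each femur library and at 981, 155 and 95.03 CPM in mandible macrophages (edgeR adjusted p = 0.0274). Pooled over libraries it was at least 405.7-fold higher in mandible, set against a floor of 3 counts over the femur group. A single cell of mandible replicate 1 held 478 of that library's 500 Amelx UMIs together with 138 of its 141 UMIs of the enamel gene Ambn, had no C1q UMI and belonged to cluster 16. Without that cell the library was at 43.5 CPM and the pooled bound was at least 65.1-fold, and without all of mandible replicate 1 it was at least 92.5-fold. Neutrophils of the mandible libraries were at 9.72 to 27.5 CPM and monocytes at 9.35 to 17.1 CPM, against at most 0.380 CPM in either class of the femur libraries. The 8 tooth genes listed summed to 104 to 1403 CPM in mandible and 0 in femur macrophages, with Dspp and Mmp20 at 0. The part of tooth RNA in this result was not tested.

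Further genes separated the sites without passing the adjustment. Folr2, the folate receptor beta gene of resident macrophages, was at 24.4, 21.7 and 15.4 CPM in femur and 76.5, 86.1 and 66.2 CPM in mandible, with no overlap and a log2 difference of 1.74 ± 0.29 (adjusted p = 0.0551 in edgeR). Ltc4s, which encodes leukotriene C4 synthase, was at 14.6, 9.30 and 8.83 CPM in femur and 51.0, 43.0 and 72.0 CPM in mandible (edgeR adjusted p = 0.0590). Dab2, an endocytic adaptor gene, was at 45.5, 89.9 and 104 CPM against 200, 314 and 593 CPM (edgeR adjusted p = 0.0707). Nav2 and the zinc finger factor gene Klf4 had log2 fold changes of 1.60 and 1.35 (edgeR adjusted p = 0.118 and 0.145). These 5 genes had the lowest p among those that were higher in mandible with no overlap, and none of them passed in that fit. DESeq2 on the same counts called Folr2 (adjusted p = 0.0233), Ltc4s (0.0177), Dab2 (0.000169) and Nav2 (0.00841). In edgeR, Folr2 and Ltc4s passed without the Scrublet calls (adjusted p = 0.0347 for both) and with at least 2 C1q UMIs (adjusted p = 0.0391 for both). Dab2 passed without femur replicate 3 (edgeR adjusted p = 0.0494) or mandible replicate 1 (edgeR adjusted p = 0.0274), and Nav2 without mandible replicate 2 (edgeR adjusted p = 0.0433). Folr2 was past the threshold under 4 of 14 alternatives, Ltc4s under 5 of 14, Dab2 under 7 of 16, Nav2 under 4 of 15 and Klf4 under 1 of 15.

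In the other direction no gene passed in the fit described above. Cxcl10, an interferon-induced chemokine gene that draws T cells, was at 35.7, 239 and 157 CPM in femur and 0, 12.9 and 0 CPM in mandible macrophages. The counts were 269 UMIs in femur and 3 in mandible. The pooled femur over mandible ratio was 41.9 (95% exact interval 14.2 to 205, counting error only, which takes no account of UMIs held by few cells). The log2 fold change of -5.62 ± 0.99 had an edgeR adjusted p of 0.0663. In femur replicate 2, 1 cell held 132 of the 154 UMIs. With 1 library left out the log2 value ran from -9.52, without mandible replicate 2, to -4.78, and it passed without femur replicate 1 (-6.10, edgeR adjusted p = 0.000497). Cxcl10 was past the threshold under 6 of 14 alternatives in all, among them the block on the title number (edgeR adjusted p = 0.00396), and was not in DESeq2 (adjusted p = 0.364). Cxcl9, its neighbour on chromosome 5, was at 185, 65.1 and 117 CPM in femur and 47.1, 0 and 25.9 CPM in mandible (log2 fold change -2.19, edgeR adjusted p = 0.253), with 126 of the 228 UMIs of femur replicate 1 in 1 cell. C3, the central complement component, was at 104, 154 and 141 CPM against 25.5, 73.2 and 63.4 CPM (log2 fold change -1.47, edgeR adjusted p = 0.205). The lipid phosphatase gene Plpp3 and the lipid transporter gene Abcb4 had log2 fold changes of -1.67 and -1.35 (edgeR adjusted p = 0.0856 and 0.271). In the monocytes of the same libraries the log2 fold changes were -1.04 for Cxcl10, -2.46 for Cxcl9 and 0.34 for C3, none passing in edgeR.

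The 5 markers of the cells themselves did not separate the sites. Their log2 fold changes were 0.14 for C1qa, 0.10 for C1qb, 0.04 for C1qc, 0.10 for Vcam1 and 0.25 for Mrc1, with SE of 0.26 to 0.33 and edgeR adjusted p of 0.899 to 0.986. The authors' label was drawn from the same expression values at both sites, so this comparison cannot show that the sites are alike in these genes.

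**Figure D3:**
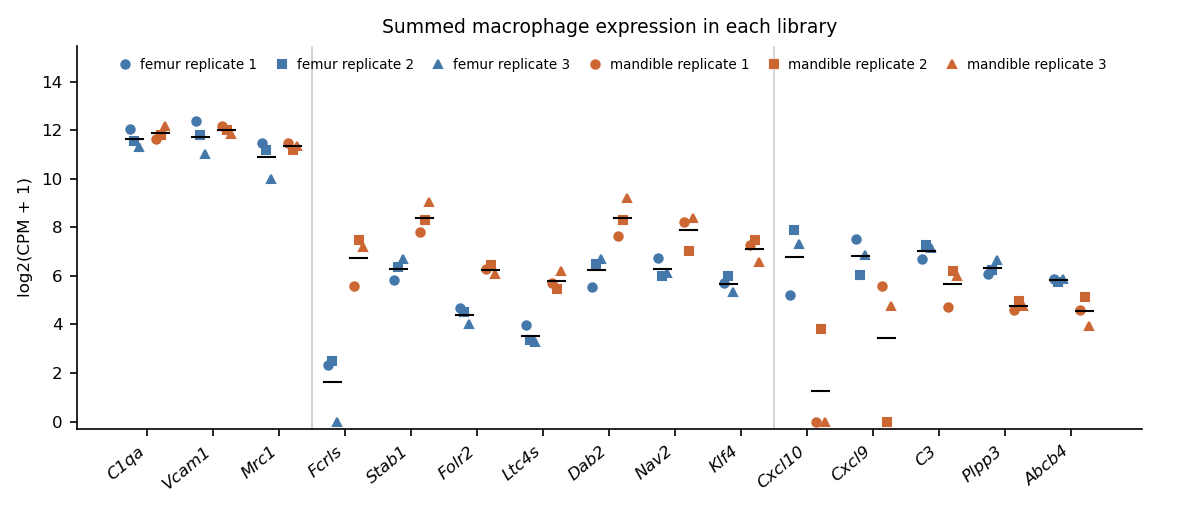
Summed macrophage expression in each library as log2(CPM + 1), with femur replicates in blue, mandible replicates in orange and a line at the mean of the 3 plotted values of a site. From left to right are 3 markers whose sites overlap, the genes higher in mandible (Fcrls to Klf4, of which Fcrls and Stab1 passed the test) and those lower in mandible (Cxcl10 to Abcb4, none of which passed). Points at 0 are libraries without a UMI.

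The site difference was then followed into the finer clusters, a choice made after seeing the data. Fcrls was found in 23 of 48 mandible and 4 of 91 femur members of cluster 8, and in 1 of 115 mandible and 0 of 204 femur members of cluster 15. Stab1 was found in 28 of 48 mandible and 28 of 91 femur members of cluster 8, and 19 of the 48 mandible cells held both genes against 3 of the 91 femur cells. In cluster 15, Stab1 had a UMI in 3 of 125, 5 of 60 and 3 of 19 members in the femur libraries and in 8 of 50, 6 of 27 and 4 of 38 in the mandible libraries. Within cluster 8, Stab1 was at 147, 108 and 85.4 CPM in femur and 493, 581 and 1110 CPM in mandible, and in cluster 15 at 10.9, 57.7 and 179 CPM and 101, 105 and 42.0 CPM. The summed Stab1 levels of the sites did not overlap in cluster 8 and overlapped in cluster 15, where the shares of cells with a UMI overlapped as well.

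Within cluster 8 alone, 20 of 3846 genes passed (0.520%), 14 higher and 6 lower in mandible. Among those higher in mandible were Plxna4 (0, 9.57 and 0 CPM in femur against 106, 243 and 134 CPM in mandible), Fcrls, Ltc4s, the growth factor gene Pdgfc, Dab2, Stab1, Igfbp4, Ier3, Tbc1d4, the ceruloplasmin gene Cp, Mir99ahg, Nfia and the LIF receptor gene Lifr. For Fcrls the log2 fold change was 5.06 ± 0.55 (edgeR adjusted p = 0.000133) and for Stab1 2.56 ± 0.35 (edgeR adjusted p = 0.000808). Those lower in mandible were Cxcl9 (314, 89.3 and 207 CPM against 0, 0 and 6.38 CPM, log2 fold change -6.25), Cxcl10 (log2 fold change -5.26, edgeR adjusted p = 0.0141), C3 (174, 246 and 212 CPM against 46.9, 112 and 63.8 CPM) and the neutrophil granule genes Ngp, Camp and Ltf. Cxcl10 had a UMI in 17 of 91 femur and 2 of 48 mandible members of cluster 8, and Cxcl9 in 14 and 1. The single cells with 126 Cxcl9 UMIs in femur replicate 1 and 132 Cxcl10 UMIs in femur replicate 2 were members of cluster 8. Within cluster 8, 334 of all 3846 genes were at an unadjusted p under 0.05 in either direction. Of 8 tested neutrophil genes, 6 were at such a p and lower in mandible, and the median log2 fold change of the 8 was -1.96. The part of neutrophil transcripts in these calls was not tested. Within cluster 15 alone, 1 of 4628 genes passed, and it was Amelx. In cluster 8 Amelx did not pass the filter on low counts and was not tested. It was at 0 CPM in each femur library and at 11.7, 187 and 102 CPM in mandible there.

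That the site effect differed between the finer clusters was tested directly and did not pass for any gene. Of 4994 genes, 0 had a limma adjusted p under 0.05 for the difference of site effects between clusters 8 and 15 (0% called), with 267 at an unadjusted p under 0.05 and a lowest adjusted p of 0.325. For Fcrls that difference was 3.60 ± 0.75 on the log2 scale (limma adjusted p = 0.628) and for Stab1 2.01 ± 0.93 (limma adjusted p = 0.894). The calls in cluster 8 are therefore not shown to be absent from cluster 15, whose cells were shallower.

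**Figure D4:**
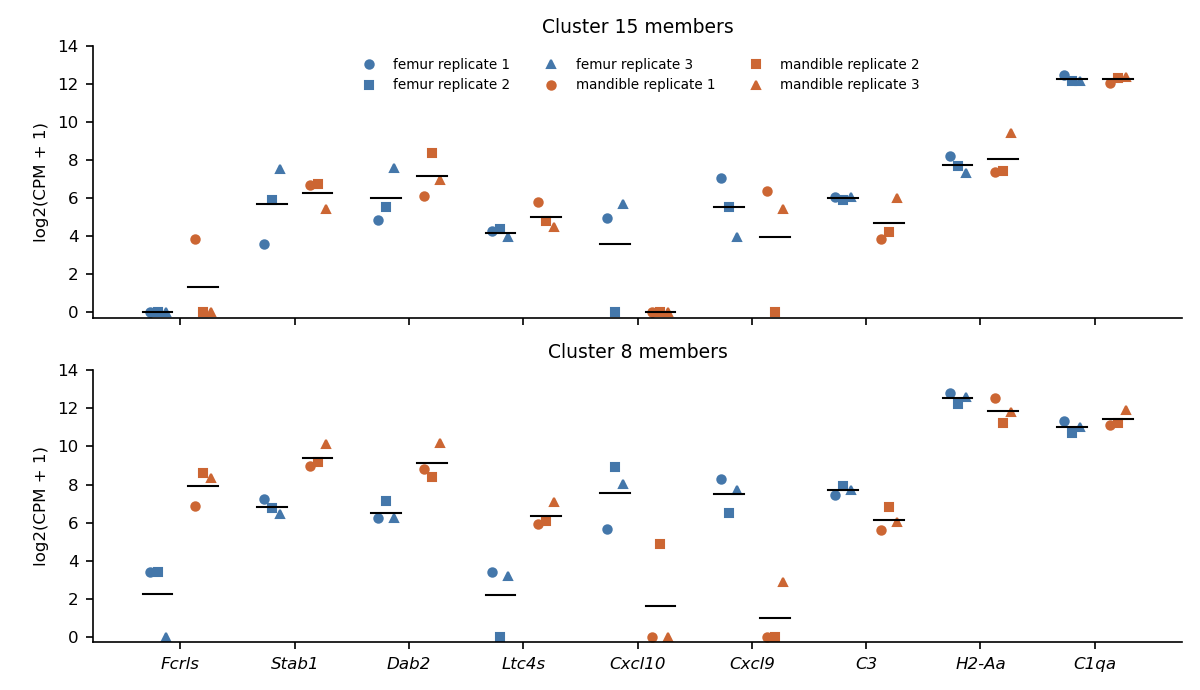
Expression of 9 genes as log2(CPM + 1) in each library for cluster 15 members (upper panel) and cluster 8 members (lower panel), with femur in blue, mandible in orange and a line at the mean of the plotted values of a site. In the lower panel Fcrls, Stab1, Dab2 and Ltc4s lie higher and Cxcl10, Cxcl9 and C3 lower in mandible with no overlap, while in the upper panel the sites overlap for Fcrls, Stab1, Dab2, Cxcl9 and C3.

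The functions of macrophages were read from 12 hand-written lists, each set beside the 0.0445% of all genes that passed. Of the genes on these lists, only Stab1 (efferocytosis) and Fcrls (scavenger receptors) passed in the fit of all macrophages. Both were higher in mandible. Medians below are of log2 fold changes, mandible over femur, over the tested members of a list, against -0.02 for all genes.

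Complement genes had a median of 0.12 over 8 tested of 9. In cluster 15 alone 0 of 6 were positive, with a median of -0.25, and in cluster 8 alone 6 of 8, with a median of 0.29. The C1q chains overlapped between the sites, as given above. The C3a receptor gene C3ar1 had a log2 fold change of 0.64 without passing (adjusted p = 0.742 by edgeR). C3 pointed the other way, and Cfp, which encodes properdin, had -0.40.

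The iron recycling and erythroblast island list had 17 tested of 18 genes and a median of -0.04. Of these, 7 had a positive and 10 a negative log2 fold change, near the 48.0% of all genes that were positive. Within the finer clusters the count was lower in cluster 15, with 3 of 17 positive and a median of -0.15. For all genes of that cluster the median was -0.02. In cluster 8 it was 6 of 14, with a median of -0.19 against -0.03 for all genes. Slc40a1 was at 3191, 2163 and 867 CPM in femur and 1954, 1558 and 1843 CPM in mandible, the femur range enclosing the mandible values. Hmox1 was at 2763, 1819 and 1123 CPM in femur and 1268, 1128 and 1564 CPM in mandible (log2 fold change -0.60). The ferritin subunit genes Fth1 and Ftl1 had -0.40 and -0.31. Nr1h3, which encodes the nuclear receptor LXR alpha, was the 1 member at an unadjusted p under 0.05, with -0.61.

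Of 11 tested efferocytosis genes, receptors for dying cells and the ligands that bridge to them, 10 had a positive log2 fold change, against 48.0% of all genes, with a median of 0.17. Within the finer clusters the count was 4 of 10 in cluster 15, with a median of -0.05, and 4 of 8 in cluster 8, with a median of -0.014. The bridging ligand genes Gas6 and Pros1 had 0.57 and 0.50. Beside Stab1, Cd36 was at 103, 51.2 and 48.6 CPM in femur and 120, 125 and 118 CPM in mandible (log2 fold change 0.69, edgeR adjusted p = 0.704). Mertk and Axl, receptor tyrosine kinase genes of this uptake, had 0.32 and 0.02, and Timd4 had 0.05. The inhibitory receptor gene Cd300lf was the negative one, with -0.96.

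Of 13 tested scavenger and lectin receptor genes, 5 had a positive log2 fold change and the median was -0.12. Fcrls passed, Folr2 and Cd36 were at an unadjusted p under 0.05, and Cd163, Msr1 and Cd68 had 0.14, -0.05 and -0.12. The alternative activation list had 6 tested of 12 genes, none at an unadjusted p under 0.05, with Chil3 at -0.76 and Fn1, the fibronectin gene, at 1.02. Retnla was listed at 0 in femur and at 41.2, 1003 and 0 CPM in mandible, and its 233 UMIs in mandible replicate 2 came from 1 cell. With UMIs in 2 of 6 libraries it did not pass the filter on low counts.

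Antigen presentation genes leaned to the femur, without any passing the adjustment. Of 11 tested MHC class II and costimulation genes, 9 had a negative log2 fold change, 4 were lower at an unadjusted p under 0.05 (2.81% of all genes), 5 did not overlap (4.01% of all genes) and the median was -0.50. H2-Aa, which encodes a class II alpha chain, was at 2657, 2465 and 3507 CPM in femur and 2104, 1196 and 1993 CPM in mandible, so the lowest femur library lay above the highest mandible library. Its log2 fold change was -0.79 ± 0.29 (edgeR adjusted p = 0.646). H2-Ab1, H2-Eb1 and the invariant chain gene Cd74 had -0.83, -0.86 and -0.65. Among the members that the second reference label also calls macrophages, these 3 genes had 0.14, 0.42 and 0.44 and H2-Aa had -0.010, with an edgeR adjusted p of 1.00 for each. The median was 0.19 over 9 genes in cluster 15 and -0.47 over 10 genes in cluster 8. Gene by gene the difference of site effects between the clusters did not pass for any member, with -1.04 ± 0.65 for H2-Aa (limma adjusted p = 0.894) and -0.76 ± 0.53 for Cd74 (limma adjusted p = 0.905). In cluster 8, H2-Aa averaged 6104 CPM in femur and 4002 CPM in mandible. The sites overlapped there (7173, 4834 and 6305 against 5990, 2425 and 3592 CPM). In cluster 15 it averaged 217 and 335 CPM, from 295, 199 and 157 CPM in femur and 161, 165 and 677 CPM in mandible. The monocytes of the same libraries held less H2-Aa in mandible as well, at 1248, 824 and 1046 CPM against 486, 258 and 458 CPM. H2-Ab1, H2-Eb1 and Cd74 were also lower in mandible monocytes, with no overlap.

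Among 16 tested transcription factor genes of macrophages, 13 had a positive log2 fold change, with a median of 0.14. The count was 10 of 15 in cluster 15 and 7 of 13 in cluster 8. Maf was at 1498, 1602 and 1240 CPM in femur and 1713, 1782 and 1616 CPM in mandible (log2 fold change 0.15), and Zeb2 and Pparg had 0.13 and 0.07. The 4 at an unadjusted p under 0.05 on the higher side (3.77% of all genes) were Klf4, Klf2, Egr1 and Nr4a1, which are also immediate early genes. On the lower side it was 1 (2.81% of all genes), the oxysterol receptor gene Nr1h3 with -0.61. Spi1, the gene of PU.1, had -0.19.

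Immediate early genes are switched on within minutes by many stimuli and also by tissue handling. As a list they leaned to the mandible, without any of them passing the adjustment in the fit of all macrophages. Each of the 16 tested genes had a positive log2 fold change, against 48.0% of all genes. At an unadjusted p under 0.05, 10 were higher (3.77% of all genes), 10 did not overlap (10.0% of all genes) and the median was 0.81. Jund was at 227, 205 and 225 CPM in femur and 394, 508 and 443 CPM in mandible, which is 0.94 ± 0.21 on the log2 scale (adjusted p = 0.205 by edgeR). Junb was at 236, 329 and 316 CPM against 514, 714 and 343 CPM. Ier3, Atf3 and Nr4a1 had log2 fold changes of 1.54, 1.24 and 1.24, and Fos, which overlapped, had 0.42. The median was 0.45 over 13 genes in cluster 15, of which 10 were positive. It was 0.94 over 16 genes in cluster 8, of which 16 were positive. Ier3 passed in cluster 8 alone, with 2.21 ± 0.40 (edgeR adjusted p = 0.0141). Handling of the 2 bones was not the same, as the sockets were flushed in the mandible alone, and its part cannot be told apart from the site.

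Interferon response genes had a negative log2 fold change in each of the 13 tested, with a median of -0.55 and 3 lower at an unadjusted p under 0.05, against 2.81% of all genes. Isg15 was at 62.5, 71.3 and 113 CPM in femur and 31.4, 25.8 and 51.8 CPM in mandible (log2 fold change -1.20, edgeR adjusted p = 0.467). Ifit2 and Rsad2 had -1.22 and -0.83, while Bst2 and Ifi204 had -0.14 and -0.13. None passed the adjustment. The interferon-induced Cxcl9 and Cxcl10 also had negative values. By finer cluster, 1 of 12 tested interferon genes was positive in cluster 8, with a median of -0.81, and 4 of 11 in cluster 15, with a median of -0.17. The difference of site effects between the clusters did not pass for any gene tested.

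**Figure D5:**
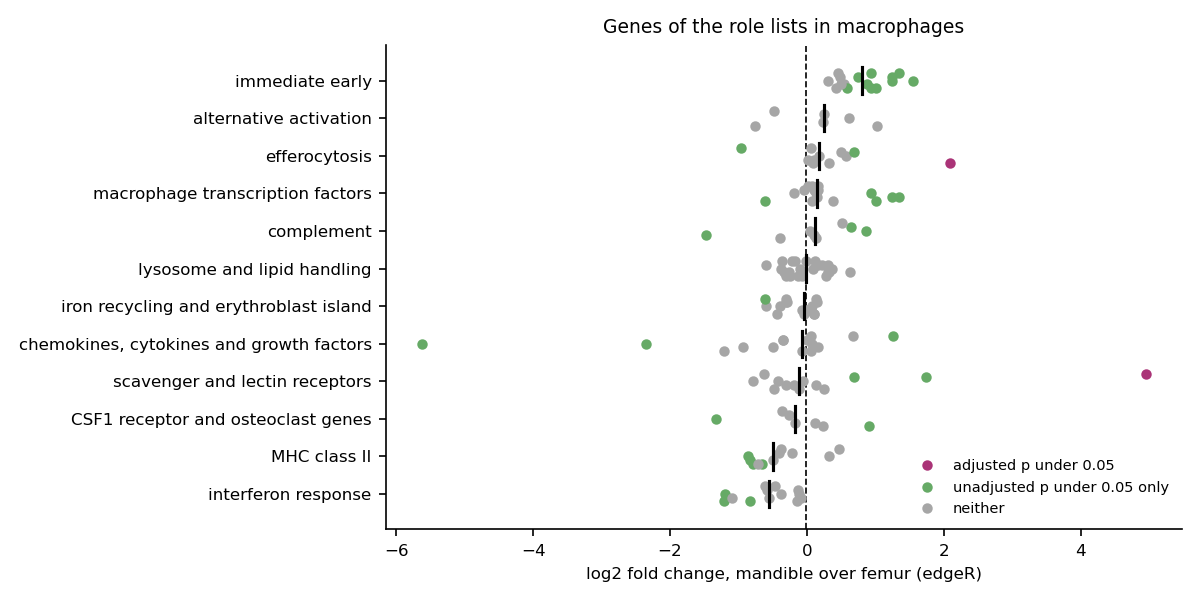
Log2 fold change, mandible over femur, of each tested gene of the 12 role lists, ordered by the list median (black bar). A dashed line marks the median of all genes tested, -0.02. Red points passed the adjusted edgeR test (Stab1 and Fcrls), green points had an unadjusted p under 0.05 only, and grey points neither. The immediate early genes all lie right of 0 and the interferon response genes left of it, and the medians of the other lists run from -0.50 for MHC class II to 0.24 for alternative activation.

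Of 7 tested CSF1 receptor and osteoclast genes, 3 had a positive log2 fold change and the median was -0.17. The CSF1 receptor gene Csf1r, on which macrophages depend for survival, was at 519, 492 and 585 CPM in femur and 553, 663 and 778 CPM in mandible (log2 fold change 0.24). Tnfrsf11a, which encodes the osteoclast receptor RANK, had 0.12. Trem2 had 0.91 (edgeR adjusted p = 0.637), with 57.6, 66.7 and 124 CPM in femur and 126, 112 and 236 CPM in mandible. Acp5, the gene of tartrate-resistant acid phosphatase, had -1.33 (edgeR adjusted p = 0.554) with femur replicate 3 highest at 497 CPM. In that library 1 cell of cluster 16 with no C1q UMI held 201 of 227 UMIs of the osteoclast protease gene Ctsk, which was at 0 to 6.20 CPM in the other libraries. Most Ctsk UMIs of the macrophages thus came from 1 cell. Likewise 1 cell with no C1q UMI held 224 of 247 UMIs of the stromal chemokine gene Cxcl12 in femur replicate 3.

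Among 15 tested chemokine, cytokine and growth factor genes, 7 had a positive log2 fold change and the median was -0.06. Pf4, a chemokine gene of platelets and of some macrophages, was at 61.7, 202 and 183 CPM in femur and 220, 301 and 599 CPM in mandible (log2 fold change 1.27, edgeR adjusted p = 0.574). Ccl4 had -2.36 (edgeR adjusted p = 0.581), with 376 CPM in femur replicate 1 and 15.7 to 60.3 CPM in the other libraries. Igf1 and Tgfb1 had 0.06 and 0.01. Of 25 tested lysosome and lipid handling genes none was at an unadjusted p under 0.05, with a median of -0.01. In cluster 15 alone 9 of 25 were positive, with a median of -0.12, and 4 were lower at such a p. In cluster 8 alone 14 of 24 were positive, with a median of 0.09, and 4 were higher and 1 lower at such a p. Of all genes, 263 of 4628 and 334 of 3846 were at such a p in either direction. Apoe, the apolipoprotein gene, was at 5537, 6161 and 8307 CPM in femur and 8334, 9649 and 14796 CPM in mandible, with no overlap and 0.62 ± 0.34 on the log2 scale (edgeR adjusted p = 0.751). Ctsb, a cathepsin gene, was at 7874, 5109 and 2726 CPM in femur and 4719, 4308 and 4959 CPM in mandible.

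Whether the site effect of macrophages differed from that of the monocytes of the same libraries was tested on the per-library difference in log2 CPM. Only genes past the filter on low counts in both labels were tested. Of 6596 such genes, 0 passed (0% called, limma), with 825 at an unadjusted p under 0.05. Fcrls was not among those tested, at 0.127 to 0.406 CPM in femur and 0.161 to 4.22 CPM in mandible monocytes. Stab1 and Amelx were tested, with differences of 2.48 ± 0.43 and 1.67 ± 0.57 (limma adjusted p = 0.202 and 0.364). The lowest p belonged to Dst, a cytoskeletal linker gene, with a difference of site effects of 2.44 ± 0.29 (limma adjusted p = 0.0770). Dst was at 344 to 469 CPM in femur and 377 to 495 CPM in mandible macrophages, and at 2.79 to 3.79 CPM in femur and 0.161 to 0.487 CPM in mandible monocytes. C1qc followed with 2.96 ± 0.42 (limma adjusted p = 0.173): its log2 fold change was 0.04 in macrophages, while in the monocytes it was at 62.2, 43.7 and 46.4 CPM in femur and 12.996, 3.71 and 5.66 CPM in mandible. Mrc1, Itgax and Ms4a7 had differences of 1.73, 1.42 and 2.70. Of the 5 lowest p in the other direction, C3 had -1.78, with 335 to 366 CPM in femur and 431 to 477 CPM in mandible monocytes, and Hsd17b10, Pgam1, Rcc1 and Aars had -1.48 to -1.26. None of these 10 passed. C1qc and Mrc1 are markers of the members, and Dst was among the genes ranked highest over monocytes. Macrophage and monocyte labels were made from the same expression values, so labelling can shape these differences, and its part was not tested. Without mandible replicate 1, 47 genes passed, 30 with a positive and 17 with a negative difference.

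Transcripts of other cell types were present in the summed macrophages. Their summed levels overlapped between the sites for neutrophil, erythroid, monocyte, B lineage, bone and stromal, and dendritic genes, and did not for tooth, endothelial and megakaryocyte genes. The 13 neutrophil genes summed to 12317 to 25128 CPM in femur and 4896 to 15254 CPM in mandible, with a median log2 fold change of -0.82 over 11 tested. None of the 13 was at 0 in all 6 libraries, but Mpo was at 0 in 3 libraries and Elane in 1. The 10 erythroid genes summed to 267 to 752 CPM in femur and 622 to 2535 CPM in mandible, and 1 cell held 455 of the 578 Hbb-bs UMIs of mandible replicate 1. All 4 tested erythroid genes had a positive log2 fold change, with a median of 1.35 and 3 at an unadjusted p under 0.05 (3.77% of all genes), and none passed the adjustment. Hbb-bs had a UMI in 11.8% to 22.8% of the femur and 30.2% to 34.8% of the mandible macrophages, with no overlap, and in 9.69% and 21.1% on average after thinning. Neutrophils of the same libraries also held more Hbb-bs in mandible, at 12.4 to 28.5 CPM in femur and 47.0 to 101 CPM in mandible. In monocytes and dendritic cells its levels overlapped between the sites. The 13 monocyte genes summed to 1740 to 3756 CPM in femur and 2033 to 3374 CPM in mandible, and the 8 B lineage genes to 177 to 249 and 142 to 316 CPM. The 11 bone and stromal genes summed to 8.12 to 280 CPM in femur and 34.4 to 90.3 CPM in mandible, and the 9 dendritic genes to 17.7 to 50.3 and 40.3 to 116 CPM. The 7 endothelial genes summed to 39.7 to 46.5 CPM in femur and 17.2 to 33.4 CPM in mandible, the 8 T and NK genes to at most 6.20 CPM with 6 of them at 0 in all libraries, and the 5 basophil and mast genes to at most 8.64 CPM. The 6 megakaryocyte genes summed to 61.7 to 202 and 222 to 605 CPM, nearly all of it Pf4, with Gp9, Gp1bb and Gp1ba at 0 in all libraries. The part of these transcripts in the site differences was not tested. Fcrls was at 0 in B cells of the same libraries and in 0.234% of femur and 0.492% of mandible monocytes. In dendritic cells it had a UMI in 1.45% ± 2.51 of the femur and 8.79% ± 8.70 of the mandible cells (SD, n = 3 libraries each), in 0% and 1.67% after thinning, and it reached 119 CPM in those of mandible replicate 1. Stab1 had a UMI in 1.90% of femur and 0.877% of mandible dendritic cells.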

How the data were processed

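Raw counts of UMIs per gene and cell barcode, deposited by the authors as 1 matrix per library, had been made with Cell Ranger on mm10 (version 7.0.1 in the submitters' processing notes, another version in the matrix header) without pooling. The metadata deposited by the authors gave, for each kept cell, cluster numbers, reference labels, phase calls, UMI counts and the mitochondrial share in percent. Kept cells had 601 to 5999 genes. The authors had normalised with SCTransform, integrated the libraries and clustered in Seurat, and labelled cells with SingleR, so that their integration and labels decided which cells are members while the counts used here were unchanged by them. Whether counting used strand is not given in the sources used here. The deposited marker table holds fold changes and p-values of clusters against all other cells and was not used.

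Here the counts of the 482 members (cluster 5 and ImmGen label Macrophages) were summed per library and compared with the edgeR 4.0.16 quasi-likelihood test in R 4.3.3 (TMM, default filter on low counts, site as the only term, Benjamini-Hochberg over all genes tested, threshold 0.05). The library was the replicate. A positive log2 fold change is higher in mandible, its SE comes from the model, and unadjusted p-values are from the same fit. Differences of site effects were tested with limma 3.58.1 on per-library differences in log2 CPM (prior count 2), and shares with exact permutation tests over 20 assignments. For shares of cells with a UMI, cells were also thinned to 2000 UMIs, leaving out shallower ones. Intervals and floors cover counting error only. Doublets were marked with Scrublet in scanpy 1.11.5. Both fits were tested on simulated data.

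Named genes were the 5 markers, up to 4 abundant members of each role list and any that passed, the called genes with up to 5 uncalled ones in each direction by lowest p with no overlap and at least 50 CPM, the 5 lowest p in each direction against monocytes, and the 20 genes highest over monocytes. Other list genes in the text were added after their values were seen, and the 11 lists of other cells are given as sums. The members, markers and lists were chosen with earlier results of these data known. Alternatives were another scaling, DESeq2 1.42.0, no filter, replicate blocks, stricter membership and leaving out each library, and the finer clusters were added after seeing the data. Neither the replicate numbers of the titles nor the library numbers were used to pair the libraries in the main fit. Same-numbered titles had correlations of deviations of 0.0502, -0.00103 and -0.0441, and the library numbers gave 0.0141 and 0.0910. With 3 libraries per site, such deviations from the site mean cannot show whether libraries share mice or a run. A few list members and called genes are not reported here by name.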

Additional observations from a re-analysis of the deposited data

How the results depend on the processing

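The 3 genes called between the sites were also called with size factors of the DESeq2 kind, and DESeq2 called 10, all higher in mandible, including the 3. Without a filter on low counts 105 genes passed (58 higher, 47 lower), without Scrublet calls 7, and with at least 2 UMIs of C1q genes 8, each time including the 3. Among members that the second reference label also calls macrophages 0 of 3790 genes passed in edgeR, with 86 at an unadjusted p under 0.05. Of the fits added after seeing the data, cluster 15 alone gave 1 call and cluster 8 alone 20. Leaving out 1 library gave 0 to 5 calls, with 0 without mandible replicate 3 (334 at an unadjusted p under 0.05). For macrophages against monocytes, leaving out 1 library gave 0 to 47 calls, the latter without mandible replicate 1. With a replicate block on the title number 5 genes passed (4 higher, 1 lower, including the 3), and on the library number, over 4 libraries with 1 residual degree of freedom, 2 passed, of which 1 was among the 3. The differences in share, mandible minus femur, turned to 0.169 points of kept cells and 0.530 points of cluster 5 in the replicate block on the library number (2 pairs), and ran from -0.533 to 0.170 and from -5.90 to 0.189 when 1 library was left out. Of 51 named genes, 26 kept their direction in every alternative run, Fcrls and Stab1 among them. Log2 fold changes turned as follows, and the cause was not tested. In cluster 15 alone they were C1qa -0.092, C1qb -0.066, C1qc -0.19, Vcam1 -0.069, Mrc1 -0.055, Cd74 0.19, H2-Aa 0.51, H2-Eb1 0.11, H2-Ab1 0.19, Pparg -0.0054, Csf1r -0.011, Igf1 -0.080, Tgfb1 -0.065 and Fos -0.23. In cluster 8 alone they were Slc40a1 0.079, Maf -0.015, Pparg -0.90, Tyrobp 0.023, Igf1 -0.15, Tgfb1 -0.082, Ctsd 0.31 and Bst2 0.042. With the second reference label they were Ftl1 0.062, Clec10a 0.51, Cd74 0.44, H2-Eb1 0.42, H2-Ab1 0.14, Pparg -0.22, Ccl6 0.86, Ctsd 0.14 and Ifi27l2a 0.053. In the replicate block on the library number they were C1qb -0.17, Slc40a1 0.24, Tnfrsf11a -0.20, Tgfb1 -0.15 and Ctsb 0.17. With at least 2 C1q UMIs they were C1qb -0.027, C1qc -0.025 and Tgfb1 -0.083, and Tgfb1 was -0.0091 without a filter and -0.0057 in the replicate block on the title number. When 1 library was left out, C1qa ran from -0.034 to 0.35, C1qb from -0.22 to 0.31, C1qc from -0.088 to 0.22, Vcam1 from -0.18 to 0.45, Mrc1 from -0.067 to 0.54, Slc40a1 from -0.65 to 0.14, Pparg from -0.075 to 0.19, Tyrobp from -0.34 to 0.024, Tnfrsf11a from -0.083 to 0.45, Igf1 from -0.17 to 0.32, Tgfb1 from -0.12 to 0.12, Ctsb from -0.54 to 0.15, Ctsd from -0.33 to 0.23 and Bst2 from -0.37 to 0.19. Mandible replicate 2 held the fewest macrophages, with 46 cells and 232355 UMIs, and how far depth limits these values was not tested.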
